A study of Mus musculus with 21 samples.

Results

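The 8 genes described here were Dlx1, Dlx2, Dlx3, Dlx4, Dlx5, Dlx6, Msx1 and Msx2, taken by symbol from 49315 mouse genes counted in each library. They were selected on their CPM in the comparison at 6 months described below, so their values in it are a description. Calls of the fit over all genes and intervals for counting error are printed for them, but support nothing, since the same values chose the members. The series concerned Tfap2a and Tfap2b, which encode AP-2α and AP-2β, transcription factors of the surface ectoderm, in the skin of adult mice, and measured total RNA from epidermal sheets after depletion of ribosomal RNA. Of 21 files, in 7 groups of 3, 8 held counts. In the other 13, all from 3 weeks of age, every gene was listed at 0.

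The groups used here were 3 libraries of the strain-specific control at 6 months, with the genotype WT, and 3 libraries labelled K14CreTfap2afl/flTfap2bfl/fl at 6 months, called double knockout below. A further 2 libraries labelled K14CreTfap2bfl/fl came from 3 weeks of age and are called Tfap2b knockout. In K14Cre mice a Krt14 promoter drives the recombinase Cre, so a floxed allele is meant to be cut in basal keratinocytes and the cells derived from them, while the other cells of an epidermal sheet keep it. Whether the control mice carried floxed alleles is not given in the sources used here.

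Dlx and Msx proteins are transcription factors that bind DNA through a homeodomain and prefer sites built around the letters TAAT. The Dlx genes lie in linked pairs that point towards each other, Dlx1 with Dlx2, Dlx3 with Dlx4 and Dlx5 with Dlx6, and the partners of a pair often share enhancers. Members of both families are known from the surface ectoderm, the limb, teeth and bone, and several respond to bone morphogenetic protein (BMP) signalling. In skin, Dlx3 is known for its role in the upper epidermis and the hair follicle, and Msx2 for its role in the hair matrix and in keeping the hair cycle in step.

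The homeodomain is what these genes share, and the stretch around its DNA recognition helix is shown for the members on which the results turn, as 60 coding bases of GENCODE M21 transcripts. Capitals mark the 33 bases that are the same in all 8 members.
Dlx3: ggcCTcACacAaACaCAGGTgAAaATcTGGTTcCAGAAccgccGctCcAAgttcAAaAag
Dlx5: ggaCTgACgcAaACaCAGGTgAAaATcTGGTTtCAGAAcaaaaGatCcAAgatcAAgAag
Dlx6: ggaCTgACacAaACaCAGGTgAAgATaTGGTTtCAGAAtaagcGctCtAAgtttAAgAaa
Msx2: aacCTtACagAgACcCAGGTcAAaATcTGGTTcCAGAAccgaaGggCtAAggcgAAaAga
In this stretch Dlx5 and Dlx6 were the same at 81.7% of bases, and Dlx2 and Dlx3 at 91.7%. Over whole transcripts, the longest exact run shared by any of the 28 pairs of members was 44 bases, between Dlx6 and Msx2, and all the other pairs shared at most 26.

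Levels are given as CPM, the counts of a gene per 1000000 counts in its library, with replicates in the order 1, 2, 3. The libraries held 11318181 to 17746284 counts. The genes that the labels name as deleted were not clearly lower in the double knockout libraries: Tfap2a was at 172 ± 35.4 CPM (SD, n = 3) in the controls and 250.3 ± 51.6 (n = 3) in the double knockout, with an edgeR adjusted p of 0.118, and Tfap2b at 71.6 ± 14.7 and 56.0 ± 1.87, with an edgeR adjusted p of 0.111. Each double knockout library was above each control for Tfap2a and below each control for Tfap2b. These are counts over whole genes, which do not resolve single deleted exons, and the group names below are those of the labels. Control replicates 1 and 2 stood apart. They had 1.61 and 3.19 counts per exonic kb over 1418 odorant and vomeronasal receptor genes, which skin is not known to express, whereas control replicate 3 had 0.148 and the remaining 5 libraries had 0.0970 to 0.195. Results for weakly expressed members are therefore given beside this receptor-gene background and for control replicate 3 alone.

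All 8 members had a lower mean CPM in the double knockout than in the control. For 5 of them, Dlx1, Dlx4, Dlx5, Dlx6 and Msx2, each control library was above each double knockout library. Among the 17755 genes tested, 38.7% had groups that did not overlap, 16.3% with the double knockout lower. Dlx1 and Dlx4 were not tested, so these shares stand beside only Dlx5, Dlx6 and Msx2 of the 5 members tested. The low-count filter passed 5 members, Dlx2, Dlx3, Dlx5, Dlx6 and Msx2, and left out Dlx1, Dlx4 and Msx1. Past an edgeR adjusted p of 0.05 were 2 of the 5, Dlx6 and Msx2, both lower, where 14.9% of all genes tested were past it, 8.59% past it and lower and 6.26% past it and higher. Nothing is read from these counts of members. Msx2 was not past the threshold without control replicate 2 or any one double knockout library, Dlx6 was not without double knockout replicate 1, and neither was with control replicate 3 as the only control; without control replicate 3, 4 members were past it, Dlx4, Dlx5, Dlx6 and Msx2. With control replicate 3 as the only control, the pooled CPM of Dlx2 and Msx1 was not lower in the double knockout.

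**Figure D1:**
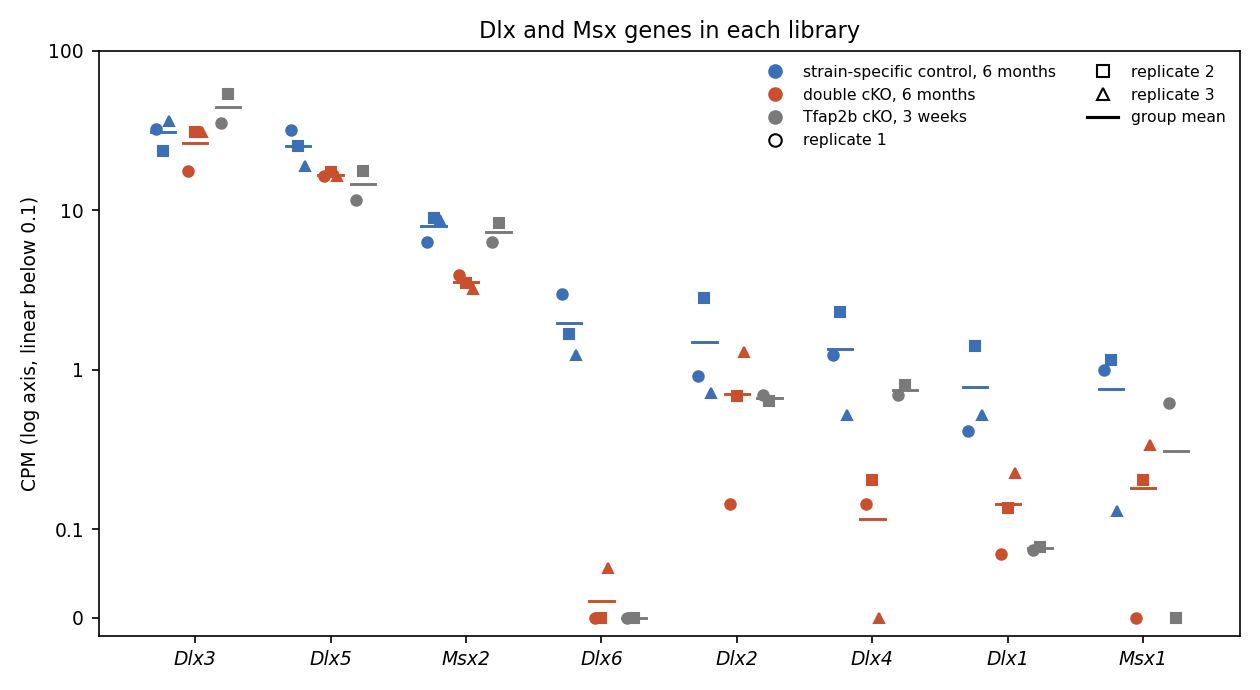
CPM of each member in each of the 8 libraries with counts, on a vertical axis that is linear below 0.1 and logarithmic above. Each point is a library, coloured by group; Dlx3 and Dlx5 are the most abundant, and the double knockout points of Dlx6 lie at or near 0.

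Levels of different genes can be compared only per length, so they are given next as CPM per exonic kb. In the control the order was Dlx3 at 11.8, Dlx5 at 11.2, Msx2 at 2.43, Dlx6 at 0.829, Dlx2 at 0.520, Dlx4 at 0.414, Msx1 at 0.245 and Dlx1 at 0.145. Over libraries, Dlx3 and Dlx5 overlapped, Msx2 lay apart from both of its neighbours in this order, and from Dlx6 downwards each gene overlapped the next. In the double knockout Dlx3 (10.2) and Dlx5 (7.39) again came first and overlapped, Msx2 followed at 1.08, and Dlx6 came last at 0.00791. By mean level, Dlx6 was thus the fourth of 8 in the control and the last in the double knockout. There, from Dlx2 downwards, each gene overlapped the next, and Dlx4 was last in replicate 3.

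Dlx3 and Dlx5 carried most of the family's RNA in every library. Summed over the 8 members, the level per exonic kb was 30.8, 25.9 and 26.1 in the controls and 15.3, 20.99 and 20.8 in the double knockout, so that the groups did not overlap. Dlx3 made up 40.4%, 34.6% and 53.7% of this sum in the controls and 44.5%, 56.3% and 57.3% in the double knockout. Dlx5 made up 45.7%, 43.2% and 32.1% in the controls and 47.0%, 36.8% and 34.98% in the double knockout. Neither share separated the groups.

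**Figure D2:**
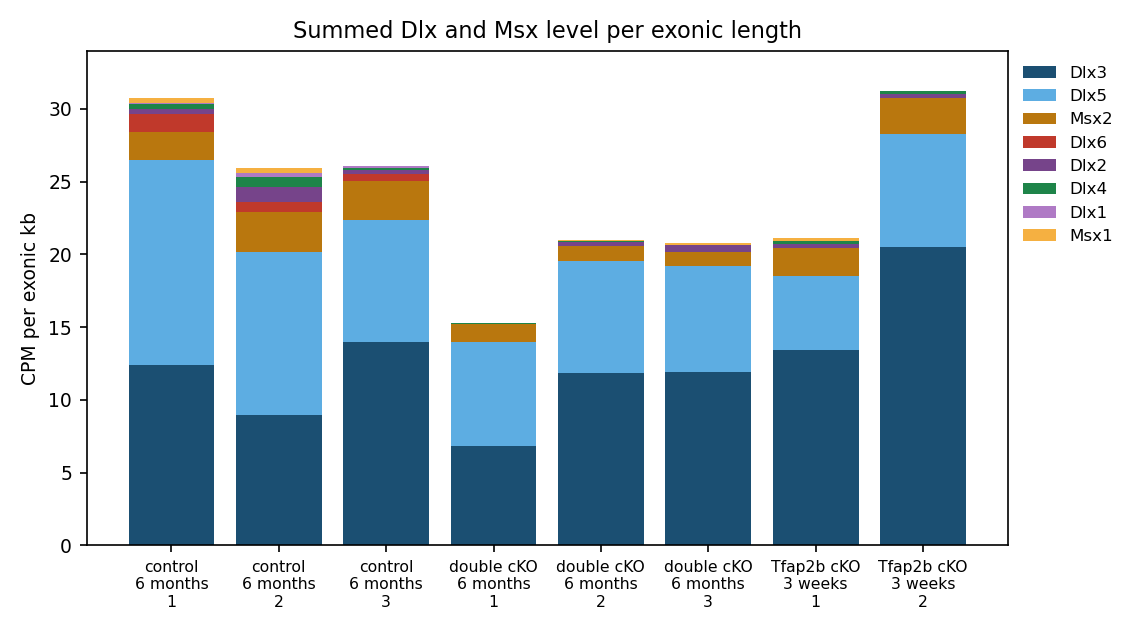
CPM per exonic kb of the 8 members, stacked, for each library. The control bars reach 25.9 to 30.8 and the double knockout bars 15.3 to 20.99, with Dlx3 and Dlx5 making up most of each bar.

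Dlx3 (ENSMUSG00000001510, chr11:95120119-95125296, plus strand, GRCm38) is a regulator of late keratinocyte differentiation and of the hair shaft. Its CPM was 32.4, 23.4 and 36.5 in the controls and 17.7, 30.8 and 31.05 in the double knockout. Only double knockout replicate 1 lay below all controls, and the log2 fold change was -0.28 (SE 0.26). With double knockout replicate 1 left out it was -0.02. The spread between replicates, with means of 30.8 ± 6.70 (SD, n = 3) and 26.5 ± 7.62 (n = 3), exceeded the difference.

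Dlx4 (ENSMUSG00000020871, chr11:95140447-95146263, minus strand), the partner of Dlx3 15.2 kb away, was near its detection limit. Its counts were 15, 26 and 8 in the control libraries (1.25, 2.30 and 0.521 CPM) and 2, 3 and 0 in those of the double knockout (0.145, 0.205 and 0 CPM). All controls were above all double knockout libraries. The pooled CPM ratio of control to double knockout was 11.7, with an exact 95% interval of 4.69 to 37.6 that, like all count intervals here, covers counting error only. For its length the receptor-gene background gave 5.26, 10.4 and 0.483 counts in the controls, and with control replicate 3 alone the ratio was 4.82 (1.39 to 18.7). Of its exonic bases, 2.42% also lie in exons of the opposite-strand gene Dlx4os. Dlx4os was counted 5, 21 and 8 times in the controls and 1, 1 and 2 times in the double knockout. Its background was 2.68, 5.31 and 0.246 counts in the controls, and it was not tested. Whether the authors' counting used strand is not given in the sources used here, so reads from such overlaps cannot be assigned to either gene.

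Dlx5 (ENSMUSG00000029755, chr6:6877805-6882085, minus strand) is best known from bone, limb and craniofacial development. Its CPM was 31.8, 25.4 and 18.9 in the controls and 16.3, 17.5 and 16.5 in the double knockout. The double knockout libraries lay close together, at 16.7 ± 0.628 CPM (SD, n = 3), and below the lowest control, while the controls were spread over 25.4 ± 6.43 (n = 3). The log2 fold change was -0.67 (SE 0.22), and -0.23 with control replicate 3 as the only control.

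Dlx6 (ENSMUSG00000029754, chr6:6863334-6868568, plus strand) is the partner of Dlx5, 9.24 kb away, and acts with it in the same tissues. Its counts were 36, 19 and 19 in the control libraries (2.99, 1.68 and 1.24 CPM) and 0, 0 and 1 in the double knockout (0, 0 and 0.0563 CPM). A count of 0 allows up to 3 counts in that library. The control to double knockout ratio of CPM was 88.3, with an exact 95% interval of 15.4 to 3536. In control replicate 3, whose background for this length was 0.351 counts, the 19 counts gave a ratio of 57.2 (9.09 to 2376). The background in control replicates 1 and 2 was 3.82 and 7.57 counts, below the counts observed in all 3 controls.

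Relative to Dlx5, Dlx6 was lower in each double knockout library than in each control. The CPM of Dlx6 per exonic kb was 8.96%, 6.31% and 6.22% of that of Dlx5 in the controls, and 0%, 0% and 0.326% in the double knockout. The opposite-strand gene Dlx6os1, a non-coding RNA of the same locus, was counted 25, 46 and 8 times in the controls and 5, 0 and 4 times in the double knockout, but its background was 8.3, 16.5 and 0.8 counts in the controls and it did not pass the filter. Of the exonic bases of Dlx6, 4.38% lie in exons of Dlx6os2, which was not tested. It was counted 1, 21 and 0 times in the controls, against a background of 2.18, 4.32 and 0.200, and 0, 2 and 0 times in the double knockout. Of 4 such locus genes found in the files 1 was tested, Dlx1as, and it was not past the threshold (edgeR adjusted p = 0.392, 3 libraries a group).

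**Figure D3:**
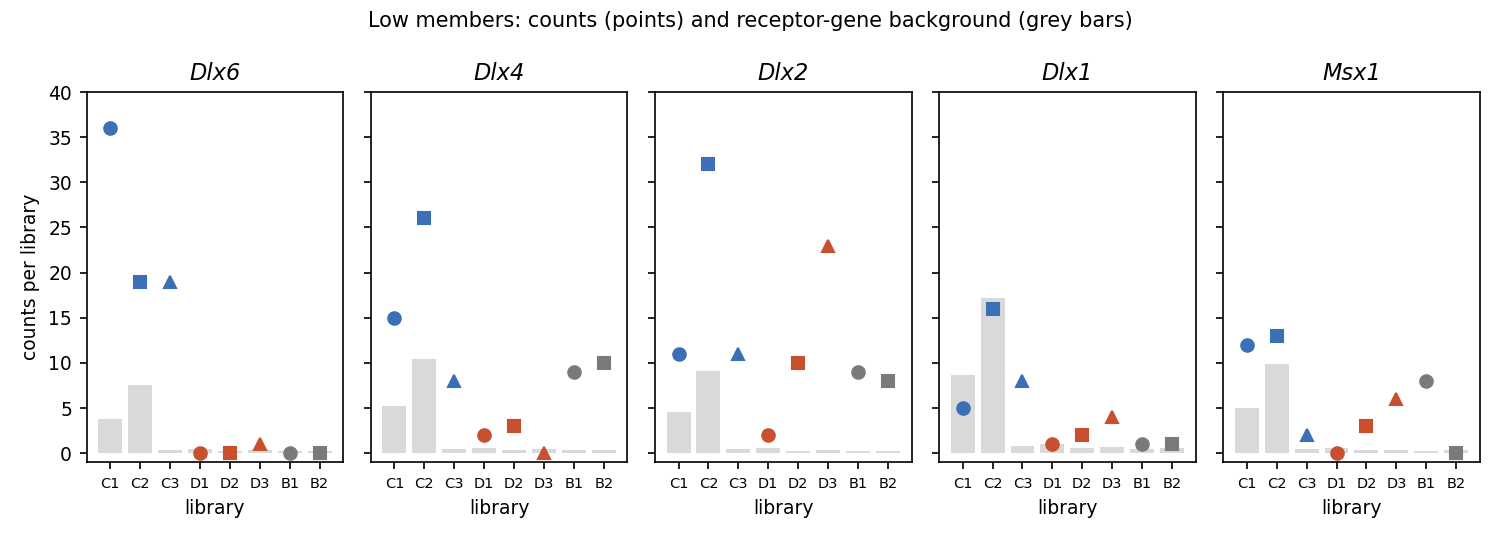
Counts of the weakly expressed members in each library (C1 to C3 control, D1 to D3 double knockout, B1 and B2 Tfap2b knockout) as points, and the counts that the receptor-gene background gives for the same exonic length as grey bars. Dlx6 stands above its background in each control and at 0 or 1 count in each double knockout library; Dlx1 lies below its background in C1 and C2.

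Dlx1 (ENSMUSG00000041911, chr2:71528113-71533981, plus strand) and Dlx2 (ENSMUSG00000023391, chr2:71543408-71546754, minus strand) lie 9.43 kb apart and are best known from the forebrain and the branchial arches. Dlx1 was counted 5, 16 and 8 times in the controls (0.415, 1.41 and 0.521 CPM) and 1, 2 and 4 times in the double knockout (0.0724, 0.136 and 0.225 CPM). In control replicates 1 and 2 that was below the background for its length, 8.69 and 17.2 counts, so only control replicate 3, with a background of 0.796, held Dlx1 above it. There the ratio to the double knockout was 3.44 (exact 95% interval 1.09 to 11.1). Dlx1 shares 6.21% of its exonic bases with Dlx1as, which was counted 9, 35 and 14 times in the controls and 47, 36 and 48 times in the double knockout.

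For Dlx2 the counts were 11, 32 and 11 in the controls (0.914, 2.83 and 0.716 CPM) and 2, 10 and 23 in the double knockout (0.145, 0.682 and 1.30 CPM). The groups overlapped, with double knockout replicate 3 above control replicates 1 and 3. Its log2 fold change was -0.97 (SE 0.85) and moved to -0.21 without control replicate 2. With control replicate 3 alone the count ratio was 0.946 (0.433 to 1.91).

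Msx1 (ENSMUSG00000048450, chr5:37820485-37824583, minus strand), a BMP target of teeth, limb and nail, was the most weakly supported member. Its counts were 12, 13 and 2 in the controls (0.997, 1.15 and 0.130 CPM) and 0, 3 and 6 in the double knockout (0, 0.205 and 0.338 CPM). The background in the controls was 4.99, 9.88 and 0.457 counts. With control replicate 3 alone the count ratio was 0.669 (0.0703 to 3.23), so the direction of the mean rested on control replicates 1 and 2.

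Msx2 (ENSMUSG00000021469, chr13:53466884-53473074, minus strand) was the Msx gene with a clear level. Its CPM was 6.31, 8.92 and 8.66 in the controls and 3.91, 3.48 and 3.21 in the double knockout. Means were 7.97 ± 1.44 (SD, n = 3) and 3.53 ± 0.353 (n = 3), and the groups did not overlap. The log2 fold change was -1.22 (SE 0.29). Its 76, 101 and 133 counts in the controls stood against a background of 5.28, 10.5 and 0.484, and with control replicate 3 alone the ratio of control to double knockout was 2.47 (exact 95% interval 1.95 to 3.13).

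The motif GCCNNNGGC of AP-2 factors, which reads the same on both strands, was searched in the 250 bases before the gene starts of RefSeq (GRCm38.p6) for the 4 members in that table, Dlx1, Dlx2, Msx1 and Msx2. These letters were in none of the 4 windows, and in 13.7% of all 32851 windows of the table. The Msx2 window, chr13:53472781-53473030 on the minus strand, and the Dlx1 window, chr2:71529195-71529444 on the plus strand, lie inside the genes as counted, whose annotated starts are further upstream, so the sequence before those starts was not searched. The result is a description of letters in a window.

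**Figure D4:**
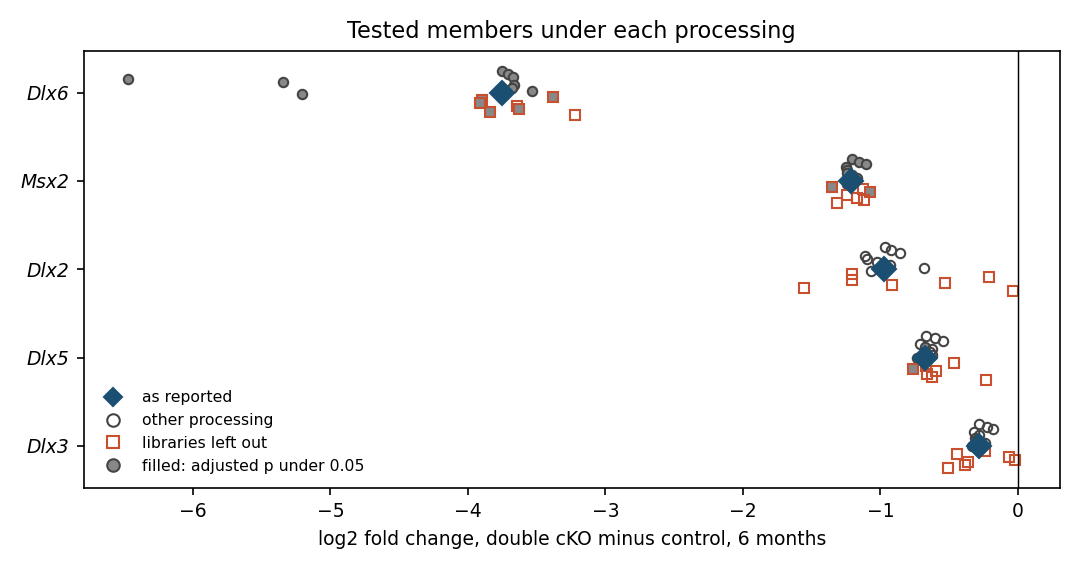
Log2 fold change, double knockout minus control, of the 5 members that passed the low-count filter, as reported (diamonds) and under each other processing or with libraries left out. No symbol lies above 0; filled symbols have an adjusted p under 0.05.

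The 2 Tfap2b knockout libraries, from 3 weeks of age, are given side by side with those from 6 months, since age and genotype cannot be told apart between them. Dlx3 was at 34.999 and 53.4 CPM and Dlx5 at 11.6 and 17.6, so that the ratio of Dlx3 to Dlx5 per exonic kb was 2.63 and 2.64, against 0.802 to 1.67 in the 6 libraries from 6 months. Msx2 was at 6.32 and 8.31 CPM. Dlx6 had 0 counts in both, which allows up to 3 counts in each. Dlx4 had 9 and 10 counts, Dlx2 9 and 8, Msx1 8 and 0, and Dlx1 1 and 1. Tfap2b knockout replicate 1 also held 3270 CPM of a list of 8 dermal papilla and fibroblast markers, against 108 in replicate 2, and 1760 CPM of 3 adipocyte markers, against 0.160. The part of these differences in the members' values was not tested.

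Levels of cell type markers in the same 6 libraries are given here beside those of the members. Of a list named for the hair matrix and shaft, Krt35, Hoxc13 and Krt71 were taken without Msx2. They summed to 14.1, 16.3 and 15.4 CPM in the controls and 7.82, 8.39 and 9.80 in the double knockout. Krt71, an inner root sheath keratin also listed with those genes below, was the largest part, at means of 8.37 and 5.41 CPM. Hoxc13 was at 6.07 and 2.96, and Krt35 at 0.833 and 0.304. In control replicate 2, Krt35 had 4 counts against a receptor-gene background of 7.64. Hoxc13, whose groups overlapped, and Krt71 were not past the threshold (edgeR adjusted p = 0.147 and 0.103), and Krt35 was not tested. In a bulk sheet, fewer cells of a type and less RNA per cell cannot be told apart. All 5 basal keratinocyte markers were tested and 4 rose, Krt14, Itgb4, Krt5 and Itga6, of which 2 were past the threshold with control replicate 3 as the only control. The fifth, Krt15, was at 1026 ± 259 CPM in the controls and 412 ± 230.3 in the double knockout (SD, n = 3 each), with an edgeR adjusted p of 0.051. Its groups did not overlap, and it was past the threshold and lower in 8 of 17 alternatives.

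Of the 8 dermal papilla and fibroblast markers, all tested, 2 fell and 1 rose, and the list's median log2 fold change was -2.07. Their summed CPM overlapped between groups, at 87.8, 178 and 85.7 in the controls and 90.7, 111 and 139 in the double knockout. The receptor-gene background for the list was 5.73, 12.1 and 0.412 CPM in the controls. Col1a1 fell from 38.2 ± 23.3 to 8.44 ± 3.62 CPM (SD, n = 3 each) and Col3a1 from 17.7 ± 8.58 to 4.41 ± 1.38, while Sparc rose from 40.8 ± 6.45 to 95.6 ± 20.1. Col1a1 was not past the threshold without any one double knockout library, and none of these genes was with control replicate 3 as the only control. Of 4 skeletal muscle markers, which summed to 3.58 to 9.72 CPM in the controls and 0.676 to 1.16 in the double knockout, 1 was tested, and this gene, Acta1, fell, a call lost with any one library left out. Of the sebaceous gland list, Scd1, a lipid desaturase, fell from 780.2 ± 65.4 to 193 ± 28.1 CPM, while Far2, at 23.1 ± 15.9 and 10.9 ± 4.24 CPM, was not past the threshold. Mc5r, Awat1 and Pparg were not tested, and all 4 genes other than Scd1 overlapped between groups. Of 4 T cell markers Cd8a fell, a call lost with any one library other than control replicate 3 left out. Of the melanocyte, Langerhans and myeloid, adipocyte, endothelial and nerve lists no gene was past the threshold. The 4 osteoblast and cartilage markers Sp7, Bglap, Ibsp and Acan, none of them tested, summed to 5.65, 8.84 and 0.456 CPM in the controls, where the background was 1.75, 3.68 and 0.126, and to 0 in each double knockout library. The part of these markers in the members' values was not tested.

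BMP signalling regulates several of these genes, and its 17 listed ligands, receptors, SMADs and antagonists were all tested. Of these, 4 fell and 1 rose, and the list's median log2 fold change was -0.80, against -0.04 over all genes tested. The ligand gene Bmp2 was at 49.0, 61.3 and 37.9 CPM in the controls and 13.6, 18.0 and 22.8 in the double knockout, that is -1.51 on the log2 scale (SE 0.25, edgeR adjusted p = 0.005). Bmp4, a ligand of the dermal papilla and the matrix, fell from 17.9 to 9.79 CPM, Bambi, a decoy receptor, from 5.07 to 0.619, and Smad7, an inhibitory SMAD, from 40.5 to 21.9. Acvr1, a type I receptor, rose from 35.2 to 55.0. The ligand gene Bmp7 was at 34.2 CPM in the controls and 60.4 in the double knockout, without overlap, but was not past the threshold (edgeR adjusted p = 0.093). Bmp6, at 9.05 and 2.40 CPM, overlapped between groups and was not past it either. The count of calls was 0 with control replicate 3 as the only control, 2 without control replicate 1, and 1 without any one of double knockout replicates 1 and 2 and control replicate 2. Bmp2 was past the threshold with each library left out in turn, 6 of 6.

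The Id genes, inhibitors of basic helix-loop-helix factors and direct targets of BMP signalling, were tested in all 4 cases, 2 fell and none rose, and their median on the log2 scale was -1.19. Id1 fell from 43.7 ± 17.6 to 19.1 ± 5.43 CPM (SD, n = 3 each) and Id4 from 43.9 ± 5.47 to 21.1 ± 5.46. Id2 and Id3 were not past the threshold, with log2 fold changes of -0.54 and -1.49. Neither Id1 nor Id4 was past it without double knockout replicate 1 or with control replicate 3 as the only control, and 1 Id gene was without double knockout replicate 2 or control replicate 2.

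Among 13 tested transcription factors of the hair follicle lineage, 3 fell and 2 rose. Lef1, the Wnt effector of the hair matrix, had a log2 fold change of -2.38, Tcf7l1 of -1.83 and Ovol1 of -0.98, while Foxn1, which drives hair shaft differentiation, rose from 22.6 to 46.2 CPM and Runx1 had 1.09. Lef1 was weakly expressed, with 38, 51 and 29 counts in the controls against a receptor-gene background of 14.1, 28.0 and 1.30. The 5 calls became 2 without control replicate 1, 1 without control replicate 2 or double knockout replicate 2, and 0 with all libraries in one fit, without double knockout replicate 1, or with control replicate 3 as the only control. Of 17 tested inner root sheath and hair shaft genes, 2 fell, Krt26 (-2.40) and Krt32 (-2.12), and none rose, and the list's median was -1.16. Krt26 was counted 19, 24 and 15 times in the controls, where its receptor-gene background was 5.90, 11.7 and 0.541 counts. For Krt32 these were 93, 64 and 58 counts against 2.77, 5.49 and 0.254. Krt75 was far above its background, with 560, 955 and 778 counts in the controls against 5.26, 10.4 and 0.482. It was at 60.5 ± 20.8 CPM in the controls and 7.45 ± 8.53 in the double knockout (SD, n = 3 each), without overlap. Its log2 fold change was -3.04, not past the threshold (edgeR adjusted p = 0.067). Krt36 went the other way, at 0.90, with groups that overlapped. Other tested genes lay closer to the background in control replicate 2, such as Krt33a at 1.52 times it and S100a3 at 1.16 times. The part of this background in the list's median was not tested. The count of calls was 0 with any one of double knockout replicates 1 and 2 and control replicates 1 and 2 left out, and 1 without double knockout replicate 3.

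In the interfollicular epidermis, 4 of 15 listed transcription factors rose and 1 fell. Among those that rose, Maf, a regulator of keratinocyte differentiation, had a log2 fold change of 1.33, Grhl2 of 0.58 and Tfap2c, the paralog of the targeted genes, of 0.50, while Prdm1 had -1.29. The list's median was 0.10, and its 5 calls became 1 without double knockout replicate 1, 2 without double knockout replicate 2 or control replicate 2, and 3 without double knockout replicate 3. Of 13 genes in a list named for the granular layer and cornified envelope, Krt1 rose (1.05) and Flg2 (-1.47) and Cdsn (-1.21) fell, with a median of 0.05. Krt1 is a suprabasal keratin already made in the spinous layer, so it does not mark the granular layer. Among those not past the threshold, Lor was lower without overlap, and Rptn and Casp14 were higher without overlap. Maf and Cdsn were past the threshold in each of the 17 alternatives.

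Other homeobox genes were mostly not past the threshold. Of 20 listed genes of the NK-like class and of skin, 14 were tested, 1 rose and none fell. That gene, Irx2, an Iroquois factor, was at 46.3, 57.5 and 41.7 CPM in the controls and 77.2, 83.0 and 75.5 in the double knockout, 0.62 on the log2 scale (edgeR adjusted p = 0.032). The median of the list was -0.04. Without control replicate 3, which leaves the controls of high background, 3 of 16 tested rose and 3 fell, and with control replicate 1 or any one double knockout library left out none was past the threshold.

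**Figure D5:**
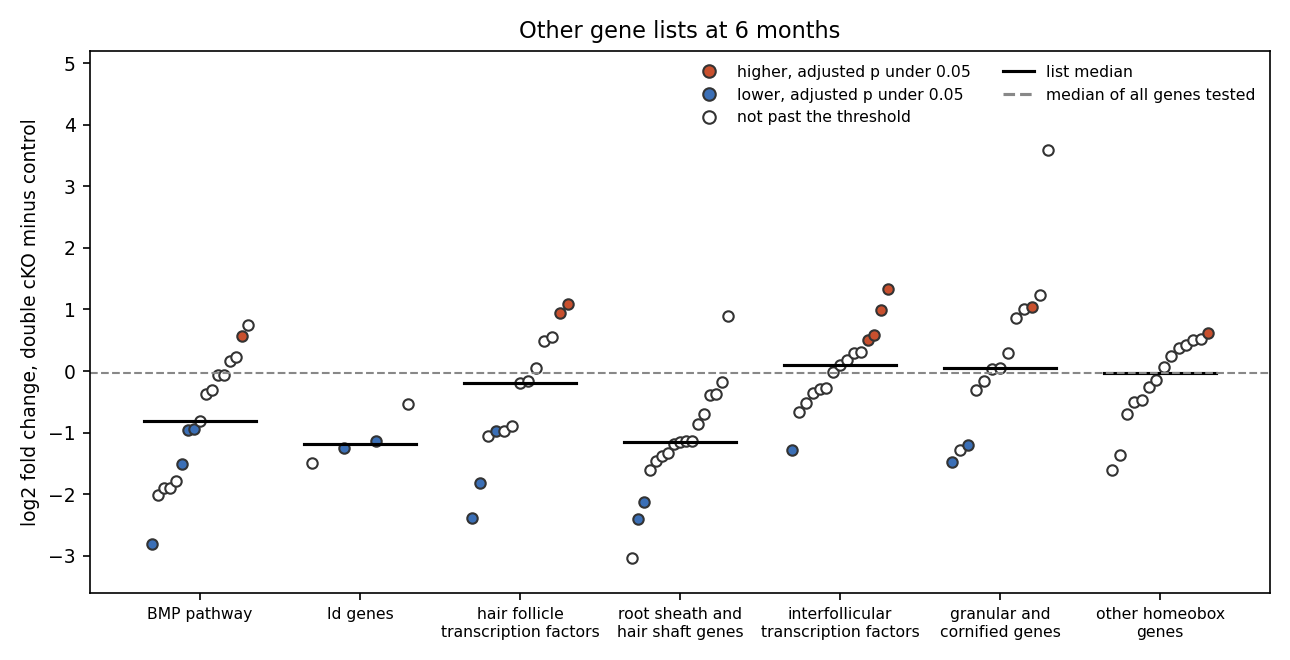
Log2 fold change, double knockout minus control, of each tested gene in 7 lists, with the median of each list and of all genes tested. Points are filled red or blue where the adjusted p is under 0.05; BMP pathway, Id and hair structural genes have medians of -0.80, -1.19 and -1.16, and the other homeobox genes one of -0.04.

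Of the protein-coding genes next to the members, leaving out the members themselves, 8 were tested and 1 was past the threshold. Itga6, the integrin subunit of basal keratinocytes that lies 198.9 kb past Dlx2, was at 817, 687 and 729.7 CPM in the controls and 1521, 1331 and 1536 in the double knockout, that is 0.90 on the log2 scale (SE 0.14, edgeR adjusted p = 0.004). Metap1d, which ends 2.92 kb before Dlx1, was at 19.8 CPM in the controls and 30.2 in the double knockout (edgeR adjusted p = 0.114), and Itga3, 43.3 kb from Dlx3, at 191 and 259.6. No tested neighbour other than the members themselves was past the threshold and lower.

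For each member with a mean of at least 1 CPM at 6 months, the protein-coding genes with the most similar course over all 8 libraries were taken among 13635 genes, by Pearson correlation of log2(CPM + 1). The 8 libraries share groups and depth, and the values are descriptions. For Msx2 they were Scnn1a (0.979), a subunit of the epithelial sodium channel, Dnajb1 (0.977), a heat shock co-chaperone, and Ccn1 (0.971), a matricellular protein. For Dlx5 they were Erg28 (0.975), Zfp711 (0.974) and Lmtk3 (0.963), for Dlx3 Arrdc2 (0.962), Zc3h14 (0.960) and Psmd8 (0.953), and for Dlx2 Sh2d4b (0.940), Rpl35a (0.934) and Crocc (0.923). Scnn1a went from 105 ± 8.05 to 54.1 ± 0.799 CPM (SD, n = 3 each), Dnajb1 from 662 to 248 and Ccn1 from 507 to 139. These genes were chosen for following Msx2 over the same libraries, so their direction comes with the choice and supports nothing.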

How the data were processed

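Total RNA of epidermal sheets was sequenced as 21 libraries, and the authors deposited whole-number counts per gene that were not normalized. Trimmomatic 0.36, STAR 2.5.2b and featureCounts of Subread 1.5.2, with the builds GRCh38 and GRCm38, are named in the submitters' processing notes. Strand setting and the handling of multi-mapped reads are not given in the sources used here. Of the gene identifiers, 99.5% were found in GENCODE M21 (GRCm38), which gave symbols, and coordinates are those of the files.

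Libraries were grouped by title. The comparison used edgeR 4.0.16 in R 4.3.3 (filterByExpr, TMM, glmQLFit with robust = TRUE, a prior count of 2), with Benjamini-Hochberg adjustment over 17755 genes and a threshold of 0.05. CPM used library totals without TMM factors. Count ratios have exact 95% intervals for counting error only, since PCR reads without molecular identifiers are not independent molecules. The labels do not say that replicates came from separate animals, so p-values measure the spread between these samples. The steps were tested on simulated data. Alternatives were other scalings, filters and prior counts, DESeq2 1.42.0, limma-voom (limma 3.58.1), the replicate block, all libraries in one fit, a subtracted background and libraries left out. Members and gene lists were chosen with earlier results of these data known. Named were the members, listed genes past the threshold first, the 3 genes most similar to each member and the nearest protein-coding genes, of which Itga6, Metap1d and Itga3 were picked after their values were seen. Leaving out control replicates 1 and 2 together was chosen after seeing the data. Krt85 and Msx1as were not analysed here, and 1 listed gene and 1 member's sequence are not reported here.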

Additional observations from a re-analysis of the deposited data

How the results depend on the processing

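No member changed direction in any alternative that fitted it. Msx1 was not fitted with control replicate 3 as the only control. In that setting the pooled CPM ratio of control to double knockout was 0.669 for Msx1 and 0.946 for Dlx2. Over the alternatives the log2 fold change ranged from -1.56 to -0.04 for Dlx2 (16 alternatives), -0.51 to -0.02 for Dlx3 (17), -0.76 to -0.23 for Dlx5 (17), -6.47 to -3.22 for Dlx6 (16) and -1.35 to -1.07 for Msx2 (17). Dlx6 was not past the threshold in 2 alternatives and Msx2 in 6, and Dlx5 passed it in 2. Dlx1, Dlx4 and Msx1 were too low for most fits, and depth limits all statements on them.

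The 2637 genes past the threshold became 4809 with no filter on low counts, 1548 with all libraries in one fit and 3835 with DESeq2. Leaving out 1 library gave 668 (without double knockout replicate 1) to 7544 (without control replicate 3), and with control replicate 3 as the only control, assumed to vary like the other group, 437. The 2 members past the threshold became 1 with at least 10 counts in every library, 0 to 4 with 1 library left out, and 0 with control replicate 3 as the only control. The cause was not tested.

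With the replicate number as a block, 1729 genes and 1 member, Dlx6, were past the threshold. Same-numbered libraries did not deviate together (correlations 0.0276, -0.161 and -0.0574), so the numbers were not taken to pair samples, and not every library correlated best with its own number.

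Among the other genes named, those that changed direction were not past the threshold. Sh2d4b was at 0.070 with control replicate 3 as the only control, and Arrdc2 ranged from -0.32 to 0.16 with 1 library left out. Mean levels under TMM scaling were within 1 SD for 16 of 16.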
